A study of Mus musculus with 12 samples.

Results

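The comparison described here set dendritic cells grown with the retinoic acid receptor alpha antagonist Ro41-5253 (Ro) and exposed to LPS against cells exposed to LPS with no retinoid. It rests on the 4 arrays titled for these groups, of 12 in the series: Ro+LPS and control+LPS, each with 1 BALB/c culture (replicate 1) and 1 BL6 culture (replicate 2), so that strain pairs the arrays. Marrow cells of mice aged 6 to 8 weeks were cultured with GM-CSF at 20 ng/ml over 10 days, and the reagents were present from the start of culture. Both groups received LPS at 1 ug/ml. Ro was given at 100 nmol per ml according to the treatment label, while the design text states 100 nmol without a volume. All-trans-retinoic acid (RA, labelled 10 nmol per ml) was added to the RA+LPS cultures, which together with the Ro and control cultures without LPS serve only for comparison. The labels give neither the length of the LPS exposure nor the vehicle of the control cultures, and nothing says that the cultures of a strain came from separate mice. The p-values therefore measure a spread between arrays and not between mice. That spread is pooled over the 6 conditions of the series after strain was taken off. Strain cannot be told apart from any batch in which all cultures of 1 number were handled together.

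Retinoic acid is made from vitamin A by retinaldehyde dehydrogenases and binds the retinoic acid receptors alpha, beta and gamma. These receptors sit on direct repeats in DNA together with retinoid X receptors, recruit corepressors without ligand and activate transcription with it. Dendritic cells themselves can make retinoic acid and pass it to T cells, which changes the homing and differentiation of those T cells. LPS is sensed through Tlr4 and Cd14 and drives NF-kappaB, interferon and metabolic programmes as the cells mature. GM-CSF cultures of marrow are known to hold macrophage-like cells beside dendritic cells.

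Values below are the deposited array signals, given as BALB/c and then BL6. Changes are on the log2(signal + 16) scale, followed by ± and their standard error in the fit. They are relative to the median change of the 12429 genes tested, which was 0.284. A gene with no change therefore counts as below the median gene. The p-values and calls, however, test the change before this median was taken off. At the same standard error, a fall as printed must therefore be larger than a rise to be called. Genes were called at an adjusted p under 0.05 (limma with Benjamini-Hochberg adjustment over all genes tested, 2 arrays against 2 within a fit of all 12), and "rose" and "fell" refer to such genes. A signal under 41.8, the highest array median, is called background. Where the mean of a group lies there, the size of the change depends on the added 16 and no fold is given.

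Array medians were 23.1 and 21.4 in control+LPS and 22.5 and 29.8 in Ro+LPS. The 3′ to 5′ signal ratios of the Actb control probe sets lay between 1.10 and 1.14. Across the 6 arrays with LPS, the first principal component (48.9% of the variance) placed Ro+LPS at 67.9 and 52.1, control+LPS at -19.6 and -44.7 and RA+LPS at -25.8 and -30.0. The second component (25.0%) separated the strains. As a check of the labelled cell type, the dendritic cell integrin Itgax had signals of 2734 and 2890 in control+LPS and 2079 and 1571 in Ro+LPS. The class II gene H2-Ab1 lay between 10750 and 11180 on all 4 arrays. Macrophage genes were also bright, with Cd68 at 5649 and 8551 in control+LPS. In these bulk samples, fewer cells of a type and less RNA per cell cannot be told apart.

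Ro moved a large part of the transcriptome of LPS-exposed cells, with more genes rising and the larger changes falling. The median change of all genes tested was 0.12 in BALB/c and 0.45 in BL6, so the shift upward was larger in BL6. The calls at the deposited scaling include this shift. Of 12429 genes, 2674 (21.5%) were called. Of these, 1986 rose (16% of genes tested) and 688 fell (5.54%). Each count of a gene list below is to be read beside these shares of all genes. Among called genes, 60 fell by more than 3 log2 units and 9 rose by as much, and the median change was 0.93 for genes that rose and -1.79 for genes that fell. After quantile normalization 1388 rose (11.2%) and 1123 fell (9.04%), so that the share of rising genes among calls moved from 74.3% to 55.3%. Both scalings called 1349 genes higher and 678 lower, and no gene was called in opposite directions. All 2674 genes had the same sign in both strains before the median was taken off. The calls rest on these same differences and leave little room for opposite signs, so this is no separate support. The share of equal signs over all genes was not counted. The strains' changes correlated with r = 0.694 across genes (Spearman's rho 0.640). Genes of an array are not independent and share its scaling. The signals of both Ro+LPS arrays lay on 1 side of both control+LPS arrays for 7009 of the 12429 genes (56.4%), and for 2612 of the called genes. The count was 1622 without the control+LPS BALB/c array, 1524 without Ro+LPS BALB/c, 847 without control+LPS BL6 and 1078 without Ro+LPS BL6. Below, 4 counts after "left out" give a list without each array in that same order.

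**Figure D1:**
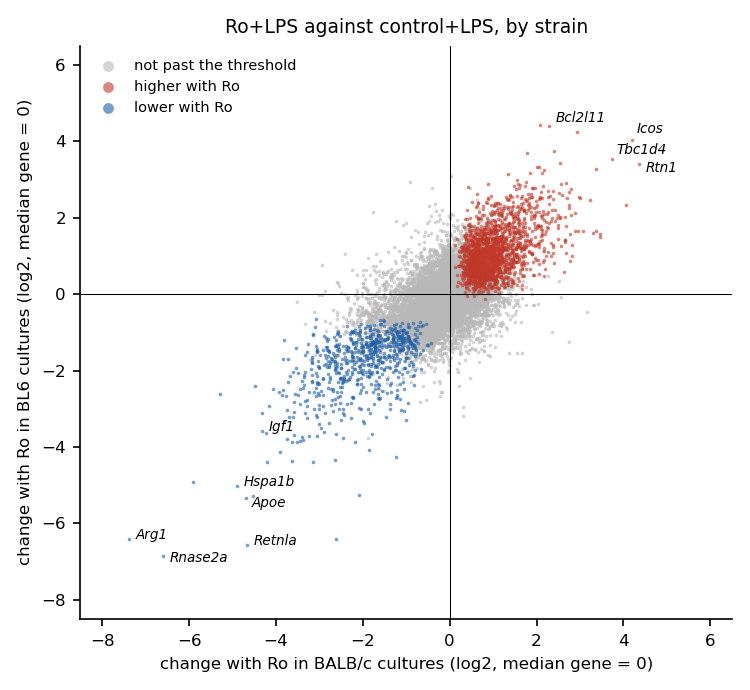
Change with Ro in LPS-exposed BALB/c cultures (horizontal) against BL6 cultures (vertical), log2 relative to the median gene, 1 point per gene tested; red genes were called higher and blue genes lower. Red genes fill the upper right, with Icos, Rtn1, Tbc1d4 and Bcl2l11 labelled, and blue genes the lower left, with Arg1, Rnase2a, Retnla, Apoe and Hspa1b labelled.

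The 12 largest falls among called genes included Arg1, Rnase2a, Retnla, Selenbp1, Apoe and Hspa1b. Arg1, the arginase that splits arginine into ornithine and urea, had signals of 8715 and 3489 in control+LPS and of 40.6 and 40.1 in Ro+LPS, which is background. It fell by 6.90 ± 0.49 (adjusted p = 7.3e-05, limma). Rnase2a, an eosinophil-type ribonuclease, went from 3436 and 3007 to 22.7 and 19.7 and fell by 6.73 ± 0.27 (adjusted p = 1.1e-06). The groups were far apart for both genes, and the levels of the strains were close to each other under Ro. Selenbp1, a selenium-binding protein, went from 5090 and 2924 to 76.6 and 118 and fell by 5.41 ± 0.77 (adjusted p = 0.0017). Ear3, another ribonuclease of that family, was at 86.3 and 1519 in control+LPS and at 2.24 and 8.93 in Ro+LPS (adjusted p = 0.0034), and its change was -5.66 without Ro+LPS BALB/c, -5.63 without control+LPS BALB/c, -3.37 without control+LPS BL6 and -3.36 without Ro+LPS BL6. That of Arg1 was -6.26 without control+LPS BALB/c and -7.55 without control+LPS BL6. The call of Ear3 held in 14 of 15 alternative fits. The ribonucleases of this family are close in sequence, so their probe sets may share signal. Of 6 ribonucleases tested, these 2 fell and none rose.

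Retnla, a secreted resistin-like protein of alternatively activated macrophages, was at 1345 and 1203 in control+LPS and at 42.0 and 1.63 in Ro+LPS. It fell by 5.62 ± 0.97 (adjusted p = 0.0044), and without the control+LPS BL6 array the change was -4.80 with an adjusted p of 0.058. Of 21 tested genes of alternative activation, 6 fell and 1 rose (left out: 5, 4, 4 and 6 lower), with a median of -1.36. Their other leading members were Trem2, a lipid-sensing receptor, which went from 309 and 311 to 3.92 and 43.2, and the eosinophil-attracting chemokine Ccl24, which went from 230 and 92.8 to 8.49 and 4.24. The C-type lectins Mrc1 (108 and 152 against 10.7 and 72.4) and Mgl2 (402 and 2783 against 143 and 648) were not called, with adjusted p of 0.071 and 0.072.

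**Figure D2:**
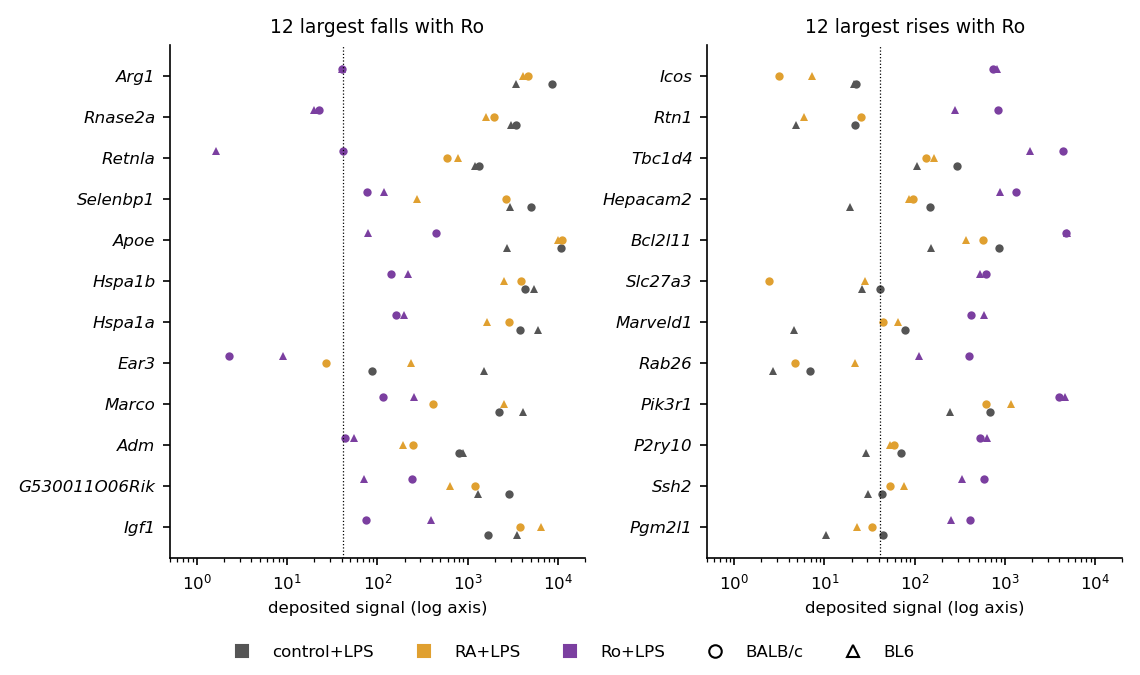
Deposited signal (log axis) of the 12 genes of largest fall (left) and of largest rise (right) among called genes, on the 6 arrays with LPS; circles are BALB/c, triangles BL6, grey control+LPS, orange RA+LPS and purple Ro+LPS, and the dotted line is the background of 41.8. For each gene both Ro+LPS arrays lie on 1 side of both control+LPS arrays, as for 2612 of all 2674 called genes. Arg1, Rnase2a and Ear3 lie below the line under Ro.

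Apolipoprotein E, which carries cholesterol out of macrophages, was measured by Apoe at 10950 and 2751 in control+LPS and at 443 and 78.2 in Ro+LPS. It fell by 5.01 ± 0.51 (adjusted p = 3.8e-04). The change was -6.06 without Ro+LPS BALB/c, -5.67 without control+LPS BL6, -4.36 without control+LPS BALB/c and -3.98 without Ro+LPS BL6. Of 26 tested genes of lipid uptake, storage and cholesterol efflux, 8 fell and 1 rose (left out: 5, 4, 7 and 7 lower), although the list's median of -0.45 was small beside these. Fabp3, a fatty acid carrier, fell by 3.76 ± 0.31 (13.6-fold), and the secreted lipase Lpl by 1.17 ± 0.15 (2.25-fold). The member that rose was the apolipoprotein Apoc2, at 861 and 619 in control+LPS and 5545 and 3413 in Ro+LPS (4.80-fold, adjusted p = 9.5e-04), a change of 2.26 that was 1.59 without Ro+LPS BALB/c and 2.92 without Ro+LPS BL6. In both strains Apoc2 thus lay above its controls while Apoe lay below them.

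Genes that mark macrophages fell together. Of 17 tested macrophage and monocyte markers, 11 fell and none rose (left out: 6, 7, 9 and 9 lower), and the list's median was -1.79. The summed signal of these 17 was 65645 and 71579 in control+LPS against 25164 and 35215 in Ro+LPS. C1qa, a chain of the complement recognition protein C1q, went from 2303 and 4683 to 289 and 472 and fell by 3.38 ± 0.26 (10.4-fold, adjusted p = 2.1e-04). Cd68, a lysosomal glycoprotein of macrophages, went from 5649 and 8551 to 1037 and 1436 (6.86-fold, adjusted p = 7.3e-05). Csf1r, the receptor for macrophage colony-stimulating factor, went from 6924 and 6057 to 819 and 2367 (5.61-fold, adjusted p = 0.0017), and 3 of its 3 probe sets were called lower. Its change was -1.89 without Ro+LPS BALB/c and -3.09 without Ro+LPS BL6. The groups did not overlap for any of these 3 genes, as for 2612 of the 2674 called genes. The Ro+LPS BL6 array was the higher of the Ro arrays in each. Cd14, the LPS co-receptor, was at 14500 and 11130 against 8145 and 5545. It fell by 1.20 ± 0.27 (adjusted p = 0.033), but was not called after quantile normalization or without any of the 4 arrays in turn (changes of -1.45 to -0.96, adjusted p of 0.055 to 0.23).

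Receptors by which macrophages bind microbes, immune complexes and debris were also lower. Of 23 tested C-type lectins and Fc receptors, 11 fell and none rose (left out: 7, 8, 8 and 10), with a median of -1.18. Clec4e, the receptor Mincle for mycobacterial glycolipids, fell by 1.87 ± 0.26 (10110 and 11840 against 2623 and 5065), its neighbour Clec4d by 2.15 ± 0.29, and the low-affinity IgG receptor Fcgr3 by 1.68 ± 0.24 (3.19-fold). Of 25 scavenger receptors and genes of apoptotic cell uptake, 7 fell and 3 rose (left out: 4, 4, 5 and 7 lower). Marco, which binds bacteria, fell by 4.30 ± 0.63, from 2238 and 4073 to 116 and 252, with -5.30 without Ro+LPS BALB/c, -5.18 without control+LPS BL6, -3.42 without control+LPS BALB/c and -3.31 without Ro+LPS BL6. Tyrobp, the signalling adaptor of Trem2, fell by 1.61 ± 0.26, from 5634 and 7704 to 1605 and 4252. The call of Marco held in 13 of 15 alternative fits and that of Tyrobp in 14. Of 24 Toll-like and NOD-like receptor genes, 8 fell and none rose, among them Tlr2 at 1493 and 2285 against 507 and 602 (adjusted p = 0.025; 0.12 without Ro+LPS BALB/c, 0.19 without control+LPS BL6 and 0.10 without Ro+LPS BL6). The count of 8 was 1, 0, 1 and 7 with each array left out. Tlr4, the receptor for LPS itself, was not called (252 and 112 against 136 and 200; -0.32 ± 0.37, adjusted p = 0.96).

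Complement and coagulation genes formed a list in which every tested gene lay below the median gene, 22 of 22. The highest lay at -0.241, a smaller distance than the 0.284 taken off, and 3 were at background on all 4 arrays. Of the 22, 11 fell and the median was -1.30. Coagulation factor X, F10, was at 5215 and 5772 in control+LPS and 391 and 783 in Ro+LPS and fell by 3.55 ± 0.30 (11.8-fold, adjusted p = 2.4e-04), with 3 of 3 probe sets called. Factor VII, F7, fell by 3.33 ± 0.29 (1010 and 2635 against 77.0 and 413), and the complement factor Cfb by 2.76 ± 0.30 (7070 and 6438 against 898 and 1601). These factors are best known as products of the liver, and here they were well above background on both control+LPS arrays. The call of F7 held in 14 of 15 alternative fits.

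Lysosomal and matrix-degrading enzymes followed the same direction. Of 27 lysosomal genes, 10 fell and none rose (left out: 8, 8, 8 and 11). Atp6v0d2, a subunit of the lysosomal proton pump, fell by 3.23 ± 0.41 (9.40-fold), the collagen-degrading protease Ctsk by 2.47 ± 0.30 (5.56-fold), Ctsa by 1.91 ± 0.15 and the hexosaminidase Hexa by 1.42 ± 0.16. Of 24 matrix genes, 7 fell and 1 rose (left out: 4, 4, 5 and 6 lower). The elastase Mmp12 went from 8917 and 7954 to 1813 and 3484, the collagenase Mmp13 from 1795 and 1411 to 342 and 387, and the protease inhibitor Timp2 from 1747 and 2083 to 160 and 494. Only 1 of the 6 probe sets of Timp2 was called. Igf1, the insulin-like growth factor made by macrophages, fell by 3.95 ± 0.34, from 1676 and 3558 to 75.6 and 395 (adjusted p = 2.4e-04).

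**Figure D3:**
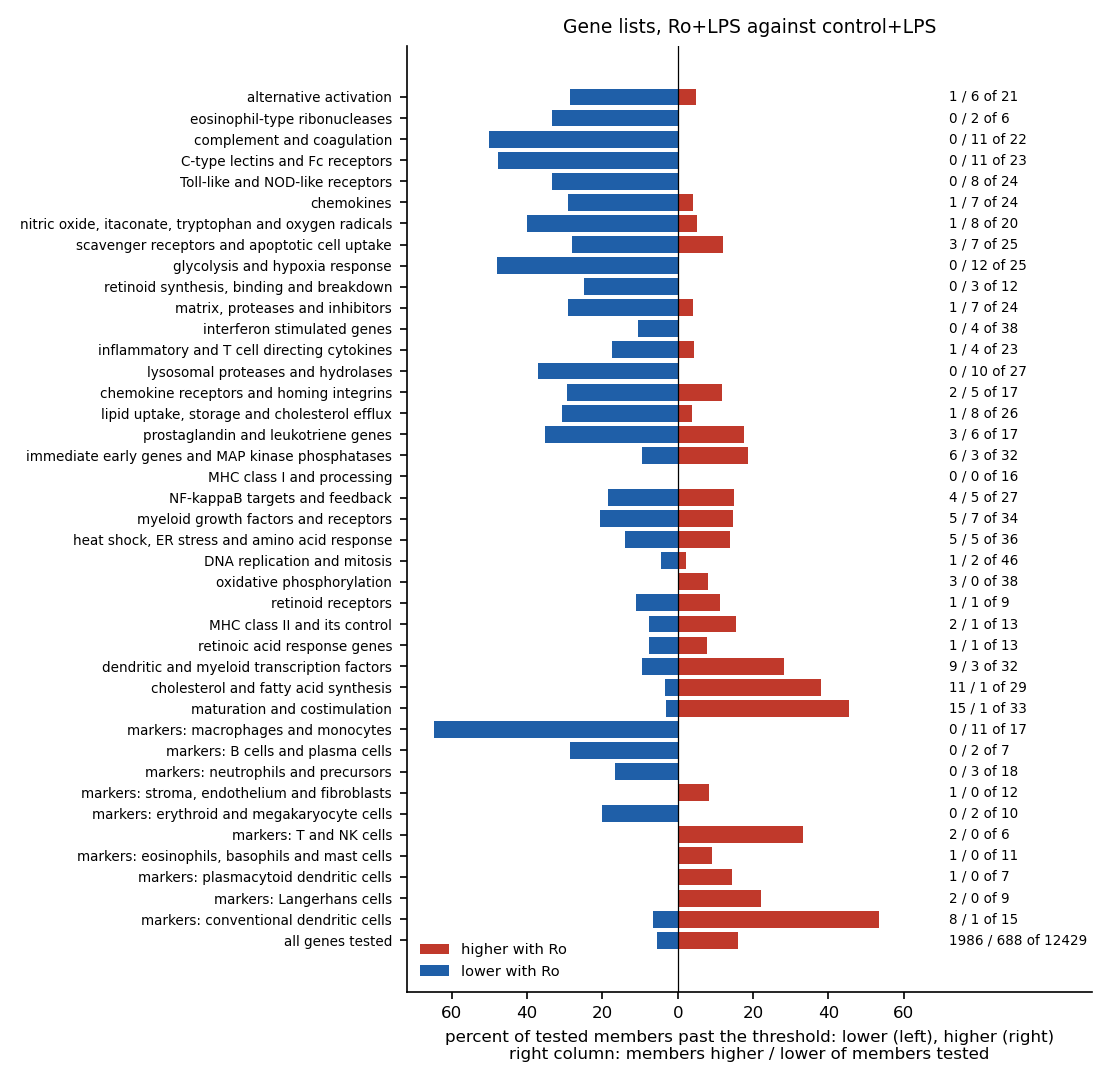
Percent of the tested members of each gene list that were called lower (blue, left) or higher (red, right) with Ro in LPS-exposed cells, ordered by the list's median change within pathways and within cell markers, with the counts at the right and all genes tested in the last row. Macrophage markers, complement, lectin receptors and glycolysis carry the longest bars to the left, and dendritic cell markers and costimulation the longest to the right.

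Heat shock proteins 70 were among the most strongly lowered genes. Hspa1b was at 4337 and 5449 in control+LPS and 143 and 216 in Ro+LPS and fell by 4.95 ± 0.33 (31.0-fold, adjusted p = 7.3e-05), with 3 of 3 probe sets called. Hspa1a went from 3775 and 6057 to 162 and 198 (29.9-fold, adjusted p = 2.4e-04). The genes lie side by side on chromosome 17 and their products are nearly the same, so the probe sets may not tell them apart. Their promoters are shown here because they are near copies as well: in the RefSeq windows (GRCm38.p6, 250 bases before to 50 after the start), 296 of 300 bases are identical (98.7%), and the 4 that differ are in capitals. Hspa1a is at chr17:34972107-34972406 and Hspa1b at chr17:34959189-34959488, both on the minus strand.
Hspa1a: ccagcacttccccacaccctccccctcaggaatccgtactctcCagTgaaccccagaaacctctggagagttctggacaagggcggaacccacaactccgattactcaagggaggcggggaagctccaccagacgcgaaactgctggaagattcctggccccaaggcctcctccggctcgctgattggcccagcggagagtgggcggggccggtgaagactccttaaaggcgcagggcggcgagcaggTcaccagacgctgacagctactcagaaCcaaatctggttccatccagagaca
Hspa1b: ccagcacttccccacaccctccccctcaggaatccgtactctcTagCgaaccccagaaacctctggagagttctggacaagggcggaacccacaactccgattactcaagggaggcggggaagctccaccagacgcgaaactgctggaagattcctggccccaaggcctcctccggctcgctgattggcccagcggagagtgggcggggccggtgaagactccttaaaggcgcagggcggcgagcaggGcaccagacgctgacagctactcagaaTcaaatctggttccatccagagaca
The co-chaperone Hsph1 fell by 1.75 ± 0.28 (1764 and 1103 against 468 and 525), a call that was lost without the Ro+LPS BALB/c array (-1.60, adjusted p = 0.053). Within the whole list of heat shock, ER stress and amino acid response, 5 of 36 fell (left out: 5, 3, 3 and 4), beside 5.54% of all genes, and 5 rose (left out: 4, 1, 1 and 4), beside 16%, the latter including the ER stress factor Xbp1 (5454 and 2570 against 9138 and 6757, 0.78 ± 0.19).

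Glucose uptake, glycolysis and hypoxia genes were lower with Ro. Of 25 tested, 12 fell and none rose (left out: 6, 5, 5 and 15), with 23 below the median gene and a median of -1.03. Slc2a1, the glucose transporter GLUT1, was at 8666 and 6334 in control+LPS and at 1671 and 1728 in Ro+LPS and fell by 2.40 ± 0.31 (5.27-fold, adjusted p = 0.0014), with 3 of 3 probe sets called. Hk2, a hexokinase, went from 2545 and 2540 to 862 and 836, and Vegfa, the vascular growth factor induced by hypoxia, from 2122 and 1384 to 536 and 453. The hypoxia factor Hif1a itself went from 3981 and 2901 to 1396 and 1444 (adjusted p = 0.0055; 0.051 without the control+LPS BL6 array). For each of these genes both Ro arrays lay close to each other. They lay under both controls, while the groups did not overlap for 2612 of all 2674 called genes. Adm, the vasodilator peptide adrenomedullin, fell by 4.02 ± 0.34 (809 and 892 against 43.4 and 55.4). Hcar2, the receptor for hydroxybutyrate and niacin, fell by 3.57 ± 0.48 (3707 and 3491 against 369 and 340). Of 38 oxidative phosphorylation genes, 3 rose and none fell, beside 16% and 5.54% of all genes, and each of these 3 calls was lost in at least 7 of 15 alternatives.

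Enzymes of inflammatory mediators went in the same direction as glycolysis for the most part. Nos2, the inducible nitric oxide synthase, was at 1439 and 705 in control+LPS and 159 and 189 in Ro+LPS and fell by 2.72 ± 0.38 (6.59-fold, adjusted p = 0.0019). Of 20 genes of nitric oxide, itaconate, tryptophan and oxygen radicals, 8 fell and 1 rose (left out: 8, 6, 6 and 9 lower), including the oxidase subunit Cybb (9211 and 8165 against 1935 and 3379) and the haem oxygenase Hmox1 (10690 and 9468 against 1868 and 3102). Of 17 prostaglandin and leukotriene genes, 6 fell and 3 rose (left out: 3, 4, 5 and 7 lower). Ptges, which makes prostaglandin E2, fell by 2.34 ± 0.31 with 3 of 3 probe sets called, and the thromboxane synthase Tbxas1 fell by 2.53 ± 0.24. Ptger4, a receptor for prostaglandin E2, rose by 1.97 ± 0.28 (961 and 570 against 4042 and 3184). The synthase and the receptor of this mediator therefore changed in opposite directions in both strains.

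The main LPS cytokines did not follow these falls. Il6 was at 8041 and 7299 in control+LPS and 7061 and 8483 in Ro+LPS (-0.27 ± 0.47, adjusted p = 0.99). Il12b, the p40 chain shared by IL-12 and IL-23, was at 13560 and 13020 against 13440 and 11770 (-0.36 ± 0.44). Il1b was at 12950 and 12320 against 9057 and 10500, and Tnf at 623 and 837 against 450 and 1278. None of these 4 was called, their groups overlapped except for Il1b, and Il12b and Il1b lay near the upper end of the deposited scale (highest value 17488). Il10 (28.5 and 45.5 against 55.6 and 162) and Il23a (41.7 and 45.8 against 64.4 and 52.3) were dim and not called.

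Of 23 cytokine genes, 4 fell and 1 rose (left out: 3, 1, 0 and 3 lower). Inhba, the chain of activin A, went from 8759 and 8839 to 2313 and 2969 (-2.03 ± 0.35, adjusted p = 0.0074), and Il18 from 385 and 839 to 131 and 289. Both calls were lost without the control+LPS BL6 array (adjusted p of 0.076 and 0.055), and that of Inhba also without Ro+LPS BALB/c (0.067). Il12a, the p35 chain that completes IL-12, was at 1038 and 887 against 178 and 423 (-2.02 ± 0.55, adjusted p = 0.043). Its call was lost with any of the 4 arrays left out (adjusted p of 0.093 to 0.24). Ebi3, the partner chain of IL-27 and IL-35, rose by 0.49 ± 0.19 (5469 and 4503 against 8040 and 8940). That call was lost without either BL6 array (0.13 without control+LPS, 0.11 without Ro+LPS).

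Among 24 chemokines, 7 fell and 1 rose (left out: 5, 4, 4 and 7 lower). Pf4, also known as CXCL4, fell by 3.06 ± 0.40 (7535 and 6819 against 804 and 1324), and Cxcl14 went from 940 and 68.8 to 10.6 and 2.97. The change of Cxcl14 lay between -4.80 (without control+LPS BL6) and -3.10 (without control+LPS BALB/c), with -4.70 without Ro+LPS BL6 and -3.21 without Ro+LPS BALB/c. The fractalkine gene Cx3cl1 rose by 1.93 ± 0.27 (78.6 and 58.5 against 420 and 331), with 1 of 4 probe sets called. Ccrl2, an atypical chemerin-binding receptor, fell by 2.73 ± 0.23 (10950 and 9639 against 2144 and 1635). Ccr7, which guides mature dendritic cells to lymph nodes, was at 8711 and 5175 against 12410 and 12280. Its groups did not overlap, which held for 56.4% of all genes, and the difference of 0.59 ± 0.36 was not called (adjusted p = 0.10).

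Interferon-stimulated genes leaned lower without many calls. Of 38 tested, 35 lay below the median gene and the median was -0.84, but 4 fell, beside 5.54% of all genes, and none rose. Oas2, which senses double-stranded RNA, went from 1285 and 1360 to 146 and 304 (adjusted p = 0.0056), and Ifit2, an antiviral protein, from 7269 and 6355 to 952 and 2595 (adjusted p = 0.040). The call of Oas2 was lost without Ro+LPS BALB/c (0.051) or control+LPS BL6 (0.060), and that of Ifit2 without any array but Ro+LPS BL6 (0.13 to 0.30). The count was 1, 0, 1 and 7 with each array left out, 12 in a fit of the 6 arrays with LPS and 15 in a fit of the 4 arrays compared. The interferon motif is GAAA followed after any 2 bases by another GAAA, on either strand. Of 27 of these genes with a RefSeq promoter window, 15 held it. Among all 10065 tested genes with a window, 372 held it (3.70%). Of the 3 interferon-stimulated genes that fell and had a window, 1 held it. Of 27 NF-kappaB target and feedback genes, 4 rose, beside 16% of all genes, and 5 fell, beside 5.54%. Both counts were smaller with each array left out. Rela (1395 and 996 against 1780 and 1662) was not called.

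The 12 largest rises included Icos, Rtn1 and Tbc1d4; for genes with control signals at background, their order depends on the added 16. Icos, a costimulatory receptor best known on T cells, was at 22.2 and 21.5 in control+LPS, which is background, and at 747 and 813 in Ro+LPS. It rose by 4.11 ± 0.33 (adjusted p = 7.3e-05), with 3 of 3 probe sets called. Of 15 T and NK cell markers on the array, 10 were at background on all 4 arrays, Cd3d, Cd3e and Cd3g among them with no signal above 23.6. Of 6 tested, 2 rose (left out: 2, 1, 1 and 1) and none fell: Icos and Klrd1, an NK cell receptor chain, at 15.1 and 2.14 against 87.2 and 56.5 (adjusted p = 0.018). The part of T and NK cells in these values was not tested. Rtn1, an ER membrane protein, went from 22.0 and 4.86 to 832 and 284. Tbc1d4, a regulator of Rab GTPases in glucose transporter traffic, rose by 3.63 ± 0.46 (294 and 106 against 4441 and 1920, 12.4-fold, adjusted p = 5.9e-04). As for all 2674 called genes, each of these rises had the same sign in both strains, which the choice of the largest rises required. Rtn1 and Tbc1d4 had the larger signal in BALB/c.

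Bcl2l11, the pro-apoptotic protein Bim, was at 873 and 154 in control+LPS and 4729 and 4877 in Ro+LPS and rose by 3.35 ± 0.59 (10.2-fold, adjusted p = 0.0025), with 4 of 5 probe sets called. Its change was 4.62 without control+LPS BALB/c and 2.06 without control+LPS BL6. Pik3r1, the regulatory subunit of phosphoinositide 3-kinase, rose by 3.07 ± 0.41 (681 and 244 against 3962 and 4717), with 3.83 without control+LPS BALB/c and 2.29 without control+LPS BL6. The control BL6 array was the lowest of the 4 for both genes, and the Ro arrays were nearly equal. P2ry10, a G protein-coupled receptor for lysophospholipids, rose by 2.98 ± 0.31 (70.8 and 28.7 against 529 and 637). Ssh2, a cofilin phosphatase, went from 43.4 and 30.6 to 593 and 337, the small GTPase Rab26 from 6.99 and 2.69 to 404 and 111, and the adhesion protein Hepacam2 from 148 and 19.1 to 1344 and 887. Rab26 had a change of 2.17 without Ro+LPS BALB/c and 4.21 without Ro+LPS BL6, and Hepacam2 of 4.29 without control+LPS BALB/c and 2.87 without control+LPS BL6.

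Of 15 tested markers of conventional dendritic cells, 8 rose, beside 16% of all genes, 1 fell and 6 were not called (left out: 7, 6, 6 and 6 higher), with a median of 0.91. The list's summed signal was 26004 and 22561 in control+LPS and 36012 and 34289 in Ro+LPS. Irf4, a transcription factor of type 2 conventional dendritic cells, rose by 2.07 ± 0.38 (403 and 212 against 1573 and 1556, 4.20-fold). Zbtb46, a transcription factor restricted to classical dendritic cells among myeloid cells, rose by 2.00 ± 0.31 (73.2 and 47.7 against 357 and 343), with 1 of 4 probe sets called. Flt3, the cytokine receptor of dendritic cell precursors, went from 4.89 and 5.85 to 77.1 and 87.6 (adjusted p = 0.012); it was picked for description after its values were seen. The member that fell was Itgax (-0.92 ± 0.20, adjusted p = 0.045), a call lost without the Ro+LPS BALB/c, control+LPS BL6 or Ro+LPS BL6 array (adjusted p of 0.11, 0.33 and 0.18). Xcr1, Cd209a and Itgae were at background on all 4 arrays.

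Of 32 dendritic and myeloid transcription factors, 9 rose and 3 fell (left out: 8, 5, 4 and 5 higher). Bcl6, a repressor needed for some dendritic cell subsets, rose by 1.63 ± 0.28 (132 and 81.7 against 453 and 419). The macrophage regulators Cebpb and Mitf fell by 2.08 ± 0.18 (9148 and 6222 against 2069 and 2262) and by 2.31 ± 0.26 (1301 and 1833 against 223 and 603). After quantile normalization the split was 7 higher and 6 lower. Nr4a3, a nuclear receptor induced by activation, rose by 1.90 ± 0.31 (2216 and 1150 against 9250 and 5767).

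Maturation and costimulation genes rose in part. Of 33, 15 rose, beside 16% of all genes, and 1 fell (left out: 10, 9, 6 and 6 higher), with a median of 0.49. Stat4, the signal transducer of the IL-12 receptor, was at 959 and 513 in control+LPS and 5269 and 4283 in Ro+LPS and rose by 2.45 ± 0.38 (5.45-fold, adjusted p = 0.0013). Cd80, a ligand of CD28, rose by 1.19 ± 0.25 (1348 and 1022 against 3770 and 2857), Tnfsf4, the ligand of OX40, by 1.39 ± 0.29 (621 and 452 against 1784 and 1665), and the cytokine signalling inhibitor Socs2 by 1.59 ± 0.26, with 6 of 6 probe sets called. For each of these the groups did not overlap, as for 2612 of the 2674 called genes. Cd86, the other ligand of CD28, was at 5945 and 7830 against 11260 and 9951 and was not called (adjusted p = 0.14). Cd40 was at 8499 and 8054 against 9138 and 7330 with overlapping groups (adjusted p = 0.97).

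Antigen presentation lists had medians of -0.14 for class II and -0.30 for class I. Of 13 class II genes, 2 rose, beside 16% of all genes, and 1 fell, beside 5.54%. The signals of H2-Ab1 were high on the deposited scale (highest value 17488). H2-Ab1 differed by -0.25 ± 0.16 (adjusted p = 0.90), and the class II transactivator Ciita rose by 1.08 ± 0.33 (307 and 304 against 748 and 881), which was lost without the control+LPS BALB/c array (0.11) or Ro+LPS BL6 (0.16). Of 16 class I genes, none was called, beside 21.5% of all genes. Cholesterol and fatty acid synthesis was the metabolic list that rose, with 11 of 29 higher and 1 lower (left out: 7, 7, 3 and 4 higher). Mvk, the mevalonate kinase, rose by 1.41 ± 0.24 (75.8 and 52.2 against 290 and 199), Fdps, the farnesyl diphosphate synthase, by 1.23 ± 0.23 (807 and 500 against 2302 and 1474), and the lanosterol demethylase Cyp51 by 1.67 ± 0.32 (125 and 47.4 against 606 and 199; 1.03 without Ro+LPS BALB/c and 2.29 without Ro+LPS BL6). In each pair the BALB/c array was the higher. Of 46 replication and mitosis genes, 1 rose, beside 16% of all genes, and 2 fell, beside 5.54%. The proliferation antigen Mki67 went from 675 and 484 to 95.8 and 130 (adjusted p = 0.0083, limma). Its call was lost without Ro+LPS BALB/c or control+LPS BL6.

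Genes of retinoid handling were described because Ro acts on a retinoid receptor. Dhrs3, which turns retinaldehyde back to retinol and is itself a retinoic acid target, was at 293 and 217 in control+LPS and 74.6 and 72.6 in Ro+LPS and fell by 1.87 ± 0.28 (3.65-fold, adjusted p = 0.0042). Aldh1a2, the retinaldehyde dehydrogenase of dendritic cells, went from 3207 and 2091 to 1654 and 570 and fell by 1.68 ± 0.25 (3.21-fold, adjusted p = 0.0040). Of 12 genes of retinoid synthesis, binding and breakdown, 3 fell and none rose. Of 9 retinoid and related receptors, 1 fell, beside 5.54% of all genes, and 1 rose, beside 16%. None was called without Ro+LPS BALB/c, control+LPS BL6 or Ro+LPS BL6. Rara, the receptor that Ro targets, was at 70.3 and 4.22 against 69.6 and 19.4 and was not called (0.11 ± 0.38). Both BL6 values are background, and the change lay between -0.22 and 0.74 over the alternatives. Of 13 retinoic acid response genes, 1 rose, beside 16% of all genes, and 1 fell, beside 5.54%. The first was Icam1, a call lost with any of the 4 arrays left out, and the second Dhrs3. The transglutaminase Tgm2 was at 10390 and 8771 against 6511 and 6390 (-0.85 ± 0.25, adjusted p = 0.13).

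Cyp26a1, which degrades retinoic acid and is induced by it, was at 29.8 and 33.7 in control+LPS and 3.12 and 5.74 in Ro+LPS. The groups did not overlap, which held for 56.4% of all genes. All 4 values are background and the difference was not called (-1.51 ± 0.44, adjusted p = 0.071). Its promoter window is shown because it holds a direct repeat of AGTTCA, read on the minus strand, with 5 bases between, in capitals, at positions -32 to -16 from the start (RefSeq, GRCm38.p6, chr19:37697558-37697857, plus strand).
Cyp26a1: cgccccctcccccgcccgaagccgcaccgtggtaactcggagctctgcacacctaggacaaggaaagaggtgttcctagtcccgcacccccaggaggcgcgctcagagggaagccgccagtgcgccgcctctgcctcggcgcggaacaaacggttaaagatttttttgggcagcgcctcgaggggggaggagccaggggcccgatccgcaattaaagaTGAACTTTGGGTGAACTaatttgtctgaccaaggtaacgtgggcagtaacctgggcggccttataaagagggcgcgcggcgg
Direct repeats of AGGTCA or AGTTCA with 5 bases between were found on either strand in 13 of 32851 windows (0.04%), and those with 2 bases between in 13 as well. Among the called genes with a window, the first kind was in 1 of 559 that fell and 0 of 1624 that rose. That gene is Blvrb, a biliverdin reductase, at 5218 and 6093 against 1532 and 2343 (-1.85 ± 0.17, adjusted p = 4.5e-04), with the repeat at positions -19 to -3; it was picked after its values were seen. A match describes the letters of a window only.

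Ro without LPS changed fewer genes, in arrays that are not shared with the comparison above. There, 180 genes were higher (1.45%) and 147 lower (1.18%). Of those 180, 87 also rose with LPS (48.3% of the 180 and 4.38% of the 1986), and of the 147, 94 also fell with LPS (63.9% and 13.7% of the 688), while 8 were called in opposite directions. The changes with and without LPS correlated with r = 0.458 across the 12429 genes (Spearman's rho 0.415; all values share the arrays' platform and the 2 strains). Rnase2a was lowered in both settings (8333 and 3948 against 103 and 50.0 without LPS), as were Apoe (10560 and 7531 against 573 and 502), Igf1 (2118 and 3811 against 108 and 472) and Dhrs3 (1178 and 1576 against 245 and 215). For these 4 genes the interaction of Ro with LPS was not past the threshold (adjusted p of 0.32 to 0.94).

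The interaction, the difference between the Ro change with and without LPS, was past the threshold for 83 genes (0.668%), of which 51 were negative and 32 positive; 1908 had an unadjusted p under 0.05. Of the 51, 41 fell with LPS, and of the 32, 29 rose with LPS. Hspa1b was dim without LPS (25.5 and 45.6 in control, 52.5 and 34.2 in Ro) and had an interaction of -5.03 ± 0.47 (adjusted p = 0.0017). Adm (28.1 and 18.2 in control, 51.3 and 54.6 in Ro) had -4.71 ± 0.48, and G530011O06Rik (65.7 and 26.5 in control, 142 and 35.8 in Ro; 2881 and 1291 in control+LPS, 240 and 70.1 in Ro+LPS) had -4.47 ± 0.38. These genes were bright in control+LPS and much lower in Ro+LPS. In cultures without LPS, Hspa1b and Adm were near background, while G530011O06Rik reached 142 in Ro BALB/c.

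Hcar2, Apoc2 and Pdgfc were called in opposite directions with and without LPS. Hcar2 rose with Ro without LPS (662 and 109 in control, 1454 and 1028 in Ro, adjusted p = 0.046) and fell with it, with an interaction of -5.52 ± 0.68 (adjusted p = 0.011). Apoc2 fell without LPS (1960 and 2278 against 195 and 299, adjusted p = 0.0017) and rose with it, with an interaction of 5.45 ± 0.47 (adjusted p = 0.0014). Pdgfc, a platelet-derived growth factor, fell without LPS (412 and 553 against 73.0 and 169) and rose with it (38.8 and 36.9 against 267 and 292), with an interaction of 4.26 ± 0.43 (adjusted p = 0.0017). C1qa was not called without LPS (9447 and 8674 against 10870 and 10020), with an interaction of -3.44 ± 0.37 (adjusted p = 0.0052). Cd207, the lectin of Langerhans cells, was at background on the 4 arrays compared and at 1649 and 298 in Ro without LPS, with an interaction of -4.52 ± 0.79 (adjusted p = 0.041), which was lost in 12 of 16 alternatives, 6 of them with 1 array left out. Of these, Hspa1b, Apoc2 and Pdgfc stayed past the threshold in all 17 alternatives, with adjusted p up to 0.027, 0.019 and 0.027. The interaction of C1qa was past the threshold in 16 of 17 alternatives and was lost without Ro+LPS BALB/c. That of Hcar2 was past it in 13 of 17. Its losses included the fits without Ro BL6, Ro+LPS BALB/c or control+LPS BL6. The number of interaction genes was 5 without Ro+LPS BALB/c, 8 without control BL6 or control+LPS BL6, 9 without Ro BALB/c, 11 without Ro BL6 and 49 without control BALB/c, while it was 99 without Ro+LPS BL6 and 105 without control+LPS BALB/c.

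**Figure D4:**
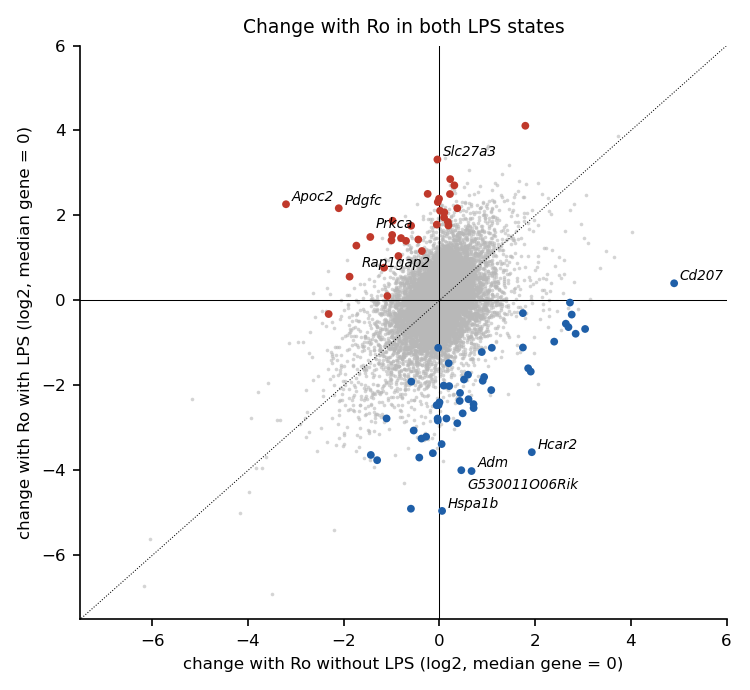
Change with Ro in cultures without LPS (horizontal) against cultures with LPS (vertical), log2 relative to the median gene, 1 point per gene tested; coloured points are the 83 genes past the interaction threshold, red positive and blue negative, and the dotted line marks equal changes. Hspa1b, Adm, G530011O06Rik and Hcar2 lie far below the line, and Apoc2, Pdgfc and Slc27a3 above it.

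RA with LPS is set beside these values only, since it shares the control+LPS arrays. No gene was called for RA+LPS against control+LPS in limma at the deposited scaling or after quantile normalization, while 1139 had an unadjusted p under 0.05. In RA+LPS, Arg1 was at 4713 and 4088, Rnase2a at 1988 and 1619, Apoe at 11190 and 9979, Hspa1b at 3947 and 2510 and C1qa at 5435 and 6944. Of the genes that rose with Ro, Icos was at 3.11 and 7.22, Stat4 at 649 and 314 and Tbc1d4 at 134 and 163. For each of these 8 genes the RA+LPS arrays lay on the control side of both Ro+LPS arrays. These genes were described for their called change with Ro, so this placing is no test of RA. Its share over all genes was not counted.

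**Figure D5:**
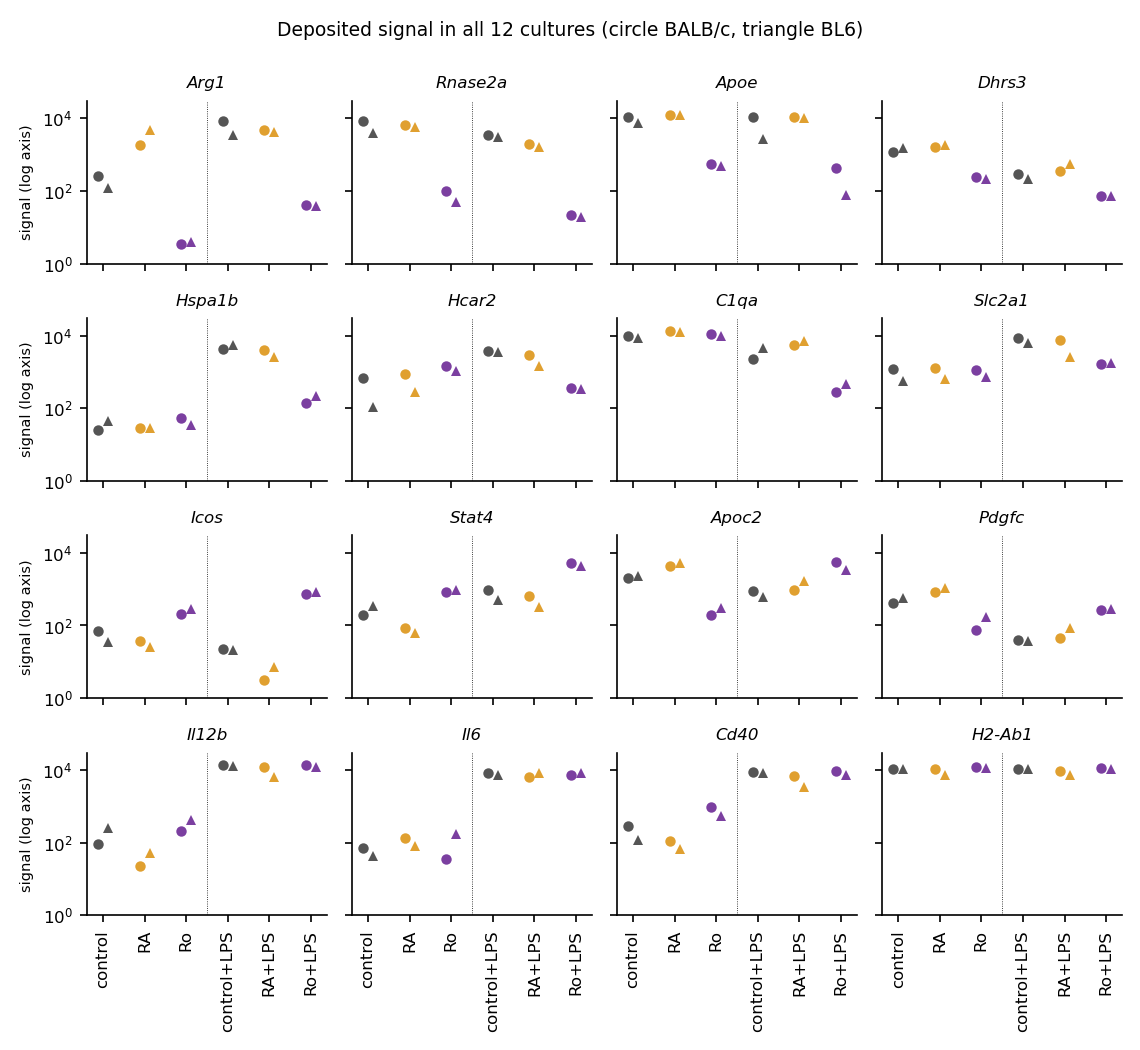
Deposited signal (log axis) of 16 genes in all 12 cultures, 3 conditions without LPS left of the dotted line and 3 with LPS right of it; circles are BALB/c, triangles BL6, grey no retinoid, orange RA and purple Ro. Rnase2a, Apoe and Dhrs3 are lowest under Ro on both sides, Hspa1b is high on the right except under Ro, and Il12b, Il6 and Cd40 have overlapping signals in control+LPS and Ro+LPS.

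Of 18 neutrophil and precursor markers, 3 fell (Mmp8, Orm1 and Csf3r, the last not without either BALB/c array) and none rose, beside 5.54% of all genes lower. Their summed signal was 13327 and 13016 in control+LPS against 4334 and 12376 in Ro+LPS, so that the Ro+LPS BALB/c array was low and the BL6 array was not. Of 7 B cell and plasma cell markers, 2 fell (left out: 1, 1, 1 and 1), Sdc1 (2779 and 974 against 441 and 164) and Cd22, a call lost without any of the 4 arrays, while Cd79a and Ms4a1 were at background. The call of Sdc1 held in 14 of 15 alternative fits. Epx, Siglech and Col1a1 were also at background on all 4 arrays. Their part in the results above was not tested.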

How the data were processed

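RNA of 12 cultures was measured on Affymetrix arrays with 45101 probe sets. The deposited values are linear signal intensities; the submitters' processing notes name MAS5, without a version or scaling target. The array medians differ, so depth has no counterpart here and the number of arrays limits precision. From these values, log2(signal + 16) was computed with 1 probe set per gene: the brightest of those above their array's median on at least 2 arrays. limma 3.58.1 (R 4.3.3; lmFit and eBayes with an intensity trend, Benjamini-Hochberg adjustment) fitted 6 conditions plus strain on 12 arrays and 12429 genes, with 5 residual degrees of freedom. Strain was kept as the block because same-numbered cultures share it and deviated together (r of 0.297 to 0.696 over 15 pairs of conditions). No sample was dropped or imputed. Probe sets were named from the platform table (34945 with 1 gene, 932 with several, 9160 with none). The rule for named genes took the 12 largest rises and falls, up to 4 called and 2 uncalled members of each of 40 lists, the 5 largest interactions each way and 31 fixed genes. The members and lists were chosen with earlier results of these data known. Alternatives were scaling, the added constant, filters, the block, subsets of arrays and each array left out.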

Additional observations from a re-analysis of the deposited data

Results flagged for a closer look

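The change with Ro differed between cultures with and without LPS, by the limma interaction test, for 83 genes. Values here are the log2 change with LPS minus the change without it, relative to the median gene. Each has an adjusted p under 0.05 at the deposited scaling, which tests the value before the median was taken off.
Among chaperones and mediators, Hspa1b had -5.03, Hspa1a -4.32, Hsph1 -2.36, Hcar2 -5.52, Adm -4.71 and G530011O06Rik -4.47. Among macrophage, lysosomal and acute-phase genes, C1qa had -3.44, Orm1 -3.28, Cd68 -1.69 and Ctsa -1.34. Fabp3 had -2.48, Mmp13 -2.81, the glucose transporter Slc2a1 -2.42, the growth factor Hbegf -2.89, the Langerhans cell lectin Cd207 -4.52 and the costimulatory receptor Cd40 -2.06. Positive interactions were 5.45 for Apoc2, 4.26 for Pdgfc, 3.34 for the fatty acid transporter Slc27a3, 3.01 for Rap1gap2, 2.92 for the kinase Prkca, 2.83 for Fosl2, 2.61 for Ssh2, 2.30 for Icos and 1.91 for the lipid-presenting molecule Cd1d1. Hspa1b, Apoc2 and Pdgfc were past the threshold in each of 17 alternatives, Adm, C1qa and G530011O06Rik in 16, Hcar2 in 13, Rap1gap2 in 12, and Hspa1a and Hbegf in 11. The other interactions held in fewer: Cd68 and Hsph1 in 7, Ctsa, Mmp13, Orm1 and Cd1d1 in 6, Fabp3, Fosl2, Prkca, Slc2a1 and Ssh2 in 5, Cd40, Icos and Slc27a3 in 4, and Cd207 in 4 of 16.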

How the results depend on the processing

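The count of 2674 genes for Ro with LPS stayed within 1.5 times under the alternatives of scaling, added constant, filter, intensity trend and subset of arrays. With every probe set tested by itself, 3710 of 45037 probe sets were called. That count has another unit than the 2674 of 12429 genes and a smaller share. Without the replicate block, that is without the pairing by strain, it was 961 (655 higher, 306 lower). With 1 array left out it ranged from 847 to 1622, with fewer samples in each such fit. Of the 2674 genes, 489 were called in each of 15 alternatives (307 higher, 182 lower). Of the 105 called genes that the text names by its rule, 68 were called in all 15, and none of the 105 changed direction. Of named genes that were not called, 11 changed sign. With quantile normalization Cd40 was at 0.0011, H2-Ab1 at 0.050, Il6 at 0.015 and Il23a at -0.017; with 64 added Il23a was at -0.0054, Rara at -0.046 and Xcr1 at -0.0086; with the filter on 6 arrays Il23a was at -0.024. With 1 array left out, Cd207 ranged from -0.14 to 0.93, Cd40 from -0.68 to 0.070, Cd86 from -0.055 to 0.74, Il12b from -0.86 to 0.12, Il23a from -0.18 to 0.23, Rara from -0.22 to 0.44, Tlr4 from -0.97 to 0.33, Tnf from -0.68 to 0.24 and Xcr1 from -0.61 to 1.11. The 83 interaction genes were 172 after quantile normalization, 238 with arrays scaled to 1 median, 31 with nothing added before log2, 49 with 4 added, 41 with no filter, 31 without the intensity trend, 10 with no replicate block and between 5 and 105 with 1 array left out; apart from the smaller fits the cause was not tested. Genes lower with Ro were 688 at the deposited scaling, 1123 after quantile normalization and 1053 with arrays scaled to 1 median. Signals near background and 2 arrays a group limit what could be detected.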

Other observations

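Counts of further groups are given beside the shares of all genes, 16% higher and 5.54% lower, with counts without each of the 4 arrays in the order used above. Of 34 myeloid growth factors and receptors, 5 rose (5, 2, 1 and 1) and 7 fell (5, 5, 7 and 8); Hbegf, a ligand of the EGF receptor, fell by 3.25 on the log2 scale. Of 32 immediate early genes and MAP kinase phosphatases, 6 rose (6, 7, 2 and 3) and 3 fell (0, 0, 1 and 3); Fosl2, of the AP-1 family, rose by 1.88. Of 17 chemokine receptors and homing integrins, 2 rose (2, 0, 0 and 1) and 5 fell (2, 2, 3 and 3). Of 9 Langerhans cell markers 2 rose (0, 1, 0 and 0), Cd1d1 and Runx3. Of 7 plasmacytoid dendritic cell markers Tcf4 rose (1, 1, 0 and 0). Of 10 erythroid and megakaryocyte markers Pf4 and Vwf fell (1, 1, 2 and 3). Of 12 stromal markers Lum rose (1, 0, 0 and 0). Of 11 eosinophil, basophil and mast cell markers Cpa3 rose, a call lost with each array left out and after quantile normalization.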
